A study of Homo sapiens with 15 samples.

Results

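HCT116 xenograft tumors made with wild type MOAP-1 were compared with tumors made with the K264R mutant, in which the lysine at residue 264 is exchanged for arginine. The 2 groups held 3 tumors each, 6 of the 15 arrays of the series, and were taken by the construct named in the labels, so that no measured value entered the choice. HCT116 is a human colon cancer cell line. Per the study's methods, pools of HCT116 cells were transiently transfected with epitope-tagged constructs and grown as tumors in athymic nude mice, which lack T cells but keep other host cells. The other arrays held 3 tumors each with the pCDNA3 empty vector, the K278R mutant of MOAP-1 and RASSF1A. The vector and K278R tumors serve here as reference levels only. All tumors thus shared the host, the cell line and the transfection, and differed by label in the construct. The arrays carry human probes, while the tumors may hold mouse host cells, and transient expression limits how long a construct is present during growth.

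MOAP-1 (modulator of apoptosis 1) binds the tumor suppressor RASSF1A and the pro-apoptotic protein BAX. After death receptor stimulation RASSF1A relieves an inhibitory fold of MOAP-1, which then helps BAX to insert into the mitochondrial membrane and release cytochrome c. MOAP-1 is a short-lived protein that is ubiquitinated through the anaphase-promoting complex (APC/C) and turned over by the proteasome. TRIM39 inhibits this ubiquitination and so stabilizes MOAP-1. Lysine side chains accept ubiquitin and other modifiers, and arginine keeps the positive charge but cannot accept them. The arrays measured RNA, so protein stability of the mutant was not measured.

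Values below are log2 of Agilent's processed signal minus the 75th percentile of the same array, so a level of 0 is that of a fairly bright probe. A level cannot be set against that of another probe. A difference is the mean of the MOAP-1 tumors minus the mean of the K264R tumors on this log2 scale, and 1 is a 2-fold difference. A probe was called when its adjusted p by limma (Benjamini-Hochberg over all tested probes) was under 0.05 and the difference was at least 1.5-fold. The 6 arrays were much alike, with pairwise correlations between 0.987 and 0.996 and 88.6% to 91.9% of spots well above background. MOAP-1 tumors 1 and 3 lay on 1 slide and MOAP-1 tumor 2 on another, together with the K278R tumors, while the K264R tumors were on a slide without MOAP-1 tumors. No slide held both groups, so slide and construct cannot be told apart in any value below. The tumors were independent per the series' text. In bulk tumors, fewer cells of a type and less RNA per cell cannot be told apart.

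MOAP1 RNA was above its level in vector tumors in both groups, and the groups overlapped with each other. The MOAP1 probe, for a gene on chromosome 14, read 0.34, 0.71 and 0.71 with the wild type construct, against 0.11, 0.46 and 0.25 with K264R. Each of these 6 values was above the vector tumors, at -0.18, -0.53 and -0.13, and MOAP-1 tumor 1 lay below K264R tumor 2. The MOAP-1 minus K264R difference was 0.31 (SE 0.14, 95% interval 0.01 to 0.62, adjusted p by limma 0.448), and 0.40 with array weights (adjusted p 0.022). The K278R tumors averaged 0.46, between both. Whether this probe reads the transfected copies as well as the cells' own transcript was not tested. RASSF1, which encodes the MOAP-1 partner RASSF1A, read 1.85, 1.76 and 1.79 in MOAP-1 tumors and 1.90, 1.64 and 1.69 in K264R tumors. These values overlapped, with a difference of 0.06 (SE 0.10, 95% interval -0.17 to 0.29, adjusted p 0.874). It was not tested whether the RASSF1 probe reads the RASSF1A transcript.

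Across the array, wild type and mutant tumors differed at 1 called probe of 30132 tested (0.00332%). The same fit called 5059 probes (16.8%) between MOAP-1 and vector tumors and 5903 (19.6%) between K264R and vector tumors, 2 comparisons that share the vector tumors. Without adjustment, 522 probes (1.73%) were at least 1.5-fold higher in MOAP-1 tumors with p under 0.05 and 116 (0.385%) at least 1.5-fold lower, so that 81.8% of these 638 lay higher. That split depended on the scaling, as it was 51.1% higher after quantile normalization, 29.4% after normexp background correction, and 92.3% after normexp without spots of high local background. Of the 6 arrays only that of K264R tumor 2 held such spots, 6 of them, so the 2 normexp fits differ in few spots. The median probe differed by 0.07 in the main scaling, 0.00 after quantile normalization, -0.28 after normexp and 0.14 after normexp without those spots. The median gene stood at 0.04, -0.01, -0.20 and 0.095 in turn, against which the list medians below are to be read. The direction of a difference within about that size therefore depends on the scaling. The count of calls also depended on how tumors were weighted, being 36 without MOAP-1 tumor 1, 0 without K264R tumor 1 or 2 (1731 and 4293 probes at unadjusted p under 0.05 by limma), 2 without MOAP-1 tumor 3, and 1372 with limma's array weights, which gave K264R tumor 3 a weight of 5.27 and MOAP-1 tumor 1 a weight of 0.691.

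**Figure D1:**
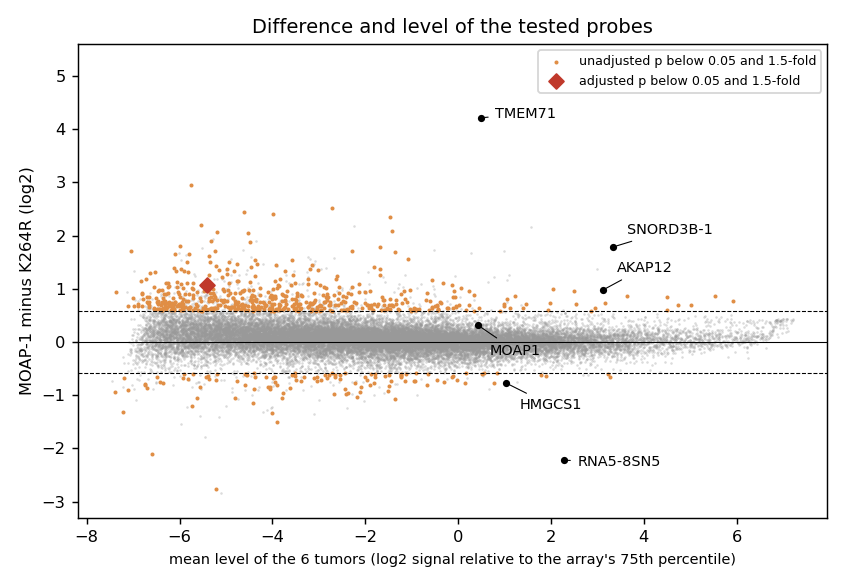
Each point is a tested probe, with the mean level over the 6 tumors (log2 relative to the 75th percentile of the array) on the x axis and the MOAP-1 minus K264R difference (log2) on the y axis, with the 1 called probe as a red diamond, probes at least 1.5-fold apart with unadjusted p under 0.05 in orange, named genes in black and dashed lines at 1.5-fold. Most probes lie close to 0, with a median absolute difference of 0.13, and the spread widens among dim probes.

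The precision was enough to bound most differences. The 95% interval lay within 1.5-fold in either direction for 20791 probes (69%) and within 2-fold for 92.6%. The median absolute difference between the groups was 0.13, against 0.28 between MOAP-1 and vector tumors and 0.29 between K264R and vector tumors. At least 1.5-fold at any p separated 1089 probes (3.61%), and at least 2-fold 209 (0.694%). Dim probes as a whole lay toward MOAP-1. The median difference, with its sign, was 0.14 among the dimmest 7533 probes and 0.02 among the brightest 7533. The dimmest held 299 of the 522 probes higher and 47 of the 116 lower. By gene, taking the brightest probe of each of 17824, 1107 (6.21%) were higher and 723 (4.06%) lower at unadjusted p under 0.05, and these shares are the background for the gene groups below. These shares belong to the main fit. With array weights 3700 genes were higher and 2161 lower, and without MOAP-1 tumor 1 the counts were 1871 and 833. All 3 MOAP-1 tumors lay above all 3 K264R tumors in 2083 genes (11.7%) and below them in 1353 (7.59%).

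The called probe, A_33_P3310552, had no RefSeq symbol in the table used here. With wild type MOAP-1 it read -5.07, -4.62 and -4.93, and with the mutant -5.95, -5.97 and -5.93. The groups did not overlap, and the K278R tumors at -5.12, -4.94 and -4.97 lay close to the MOAP-1 tumors, the first of them just below the lowest. The vector tumors at -5.70, -5.41 and -5.47 lay between. The difference was 1.08 (SE 0.12, 95% interval 0.83 to 1.33), or 2.11-fold, with an adjusted p of 0.0106 by limma, and the next smallest adjusted p of any probe was 0.139. The call was lost after quantile normalization (difference 0.89) and without any 1 of the K264R tumors, where the adjusted p was 0.0571, 0.112 and 0.0504 in turn, and the sign turned after normexp background correction (-0.57).

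No gene with a RefSeq symbol was called at its brightest probe, and those described next were picked after their values were seen, as the genes of smallest unadjusted p in each direction. AKAP12 and GOLGA8EP came first among the genes higher in MOAP-1 tumors. AKAP12, a scaffold that anchors protein kinase A and protein kinase C, read 3.61, 3.60 and 3.58 in MOAP-1 tumors and 2.91, 2.47 and 2.49 in K264R tumors. The MOAP-1 tumors lay close together and above each mutant tumor, at a difference of 0.97 (SE 0.15, adjusted p 0.139). The vector tumors averaged 4.09 and the K278R tumors 3.45, so the K264R tumors were the lowest of these 4 groups. The other 2 AKAP12 probes differed by 0.09 and 0.07 only. GOLGA8EP, a golgin pseudogene, differed by 0.98 (adjusted p 0.139) at its brightest probe and by -0.15 at its other. With array weights each of the 20 genes of smallest p had an adjusted p under 0.05, from 0.00467 for AKAP12 to 0.0142 for the pseudogene MSX2P1, and with scan day as a block that of AKAP12 was 0.0289. Array weights put 5285 of 30132 probes under 0.05 at any fold. As the 20 genes were picked by p on the same arrays, their passing is no independent support.

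H4C12, a replication-dependent histone H4 gene, read 0.55, 0.72 and 0.88 in MOAP-1 tumors and -0.23, -0.40 and -0.10 in K264R tumors. The groups did not overlap, the difference was 0.96 (SE 0.16, adjusted p 0.207), and both lay far below the vector tumors at 2.71. SNORD3B-1, a U3 small nucleolar RNA needed for ribosomal RNA processing, read 4.75, 4.63 and 3.32 in MOAP-1 tumors and 2.40, 2.48 and 2.46 in K264R tumors. MOAP-1 tumor 3 stood between the other two MOAP-1 tumors and the K264R tumors, and the difference was 1.79 (SE 0.33, adjusted p 0.207). Its other probe read 0.94, 0.56 and -0.25 against 0.14, -0.13 and 0.16, overlapping, and differed by 0.36, while the brightest probe differed by 2.24 without MOAP-1 tumor 3 (adjusted p 0.0354). Again the vector tumors were higher, at 6.47. RPPH1, the RNA of ribonuclease P, was higher by 1.03 (adjusted p 0.259), ZKSCAN1, a zinc finger factor, by 0.63 (0.207), the corepressor NCOR1 by 0.62 (0.233), and OTX1, a homeobox factor, by 0.63 (0.275). The other NCOR1 probes differed by 0.14 and 0.38 and the other OTX1 probe by 0.23. LEFTY2, a secreted inhibitor of Nodal signaling, was higher by 0.76 (adjusted p 0.224) at a low level, and by 0.93 without MOAP-1 tumor 1 (adjusted p 0.020). In SNORD3B-1 and LEFTY2 the tumor left out was the MOAP-1 tumor nearest the K264R tumors, so these smaller p values are no independent support.

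Among the genes lower in MOAP-1 tumors, ZMPSTE24, the protease that matures lamin A, read 1.83, 1.75 and 1.79 in MOAP-1 tumors and 2.41, 2.11 and 2.35 in K264R tumors. The groups did not overlap and the difference was -0.50 (SE 0.10, adjusted p 0.275). The K264R tumors again stood alone here, since the vector tumors averaged 1.93 and the K278R tumors 1.84. PLS1, an actin-bundling protein of epithelial brush borders, differed by -0.64 (adjusted p 0.311), MFSD1, a lysosomal transporter, by -0.47 (0.305), DDX46, a splicing helicase, by -0.46 (0.311), and the EGF receptor ligand EPGN by -1.21 (0.305) at a low level. Without MOAP-1 tumor 1 EPGN differed by -1.51 (adjusted p 0.0482), but that tumor was the nearest to the K264R tumors, so this p is no independent support. The other MFSD1 probe differed by -0.20. ITGA6, the integrin alpha 6 chain, differed by -0.59 at its brightest probe (adjusted p 0.311) but by 0.16 at its other probe.

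**Figure D2:**
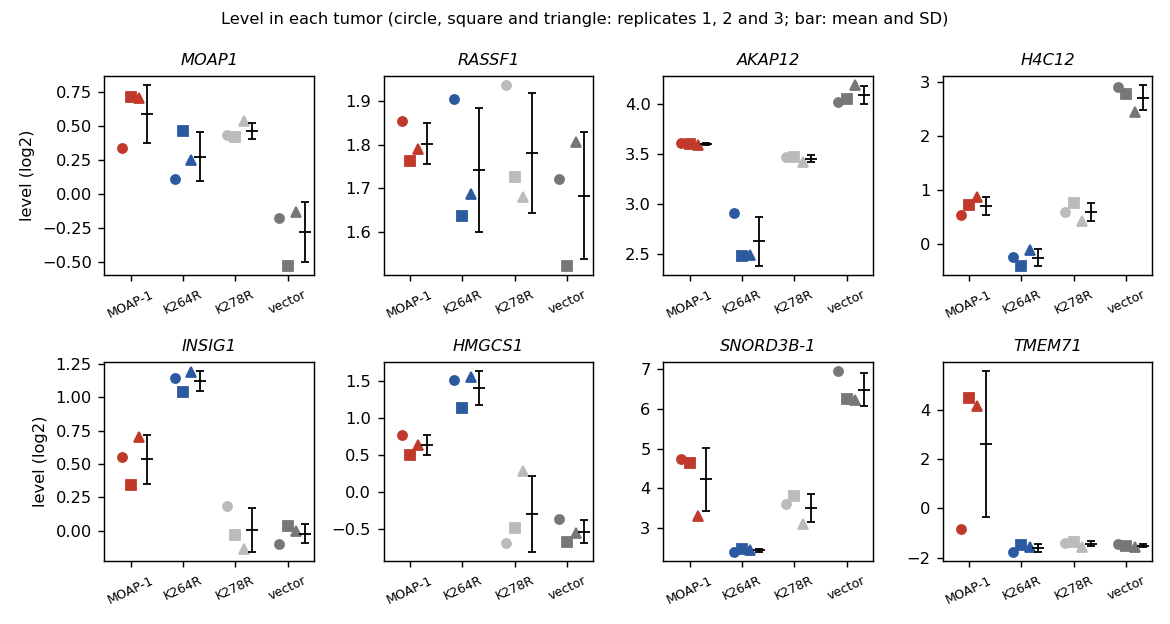
Level of 8 genes (log2 relative to the 75th percentile of the array, y axis) in each MOAP-1, K264R, K278R and vector tumor, 1 point a tumor, with the mean and SD of each group as a bar. AKAP12, H4C12, INSIG1 and HMGCS1 do not overlap between MOAP-1 and K264R tumors, MOAP1 and RASSF1 do, and TMEM71 is high in only 2 MOAP-1 tumors.

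None of the genes around MOAP-1 itself was called. Of the 16 genes of the MOAP-1 and BAX route that were tested, 2 (RASSF6 and MOAP1) were higher and 1 (STK3) was lower at unadjusted p, none was called, and the median difference was 0.04, that of all genes being also 0.04. BAX, the pore-forming effector, read 1.23, 1.48 and 1.69 in MOAP-1 tumors and 1.38, 1.28 and 1.58 in K264R tumors, which overlapped (difference 0.05, SE 0.15, adjusted p 0.931). RASSF6, another RASSF protein that binds MOAP-1, differed by 0.47 (adjusted p 0.420) with no overlap. STK3, the Hippo kinase MST2, differed by -0.53 (adjusted p 0.363), with K264R tumor 2 inside the MOAP-1 range. TRIM39 read -1.24, -0.50 and -0.68 against -1.31, -1.13 and -1.33, a difference of 0.45 (SE 0.22, adjusted p 0.475).

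Of 21 tested genes of MOAP-1 turnover and the APC/C, 5 lay above 0 and the median was -0.04. FBXO5, the APC/C inhibitor EMI1, differed by -0.38 (adjusted p 0.362) and CDC23, an APC/C subunit, by -0.43 (0.387), the 2 members at unadjusted p under 0.05. Both had no overlap, with K264R tumor 2 the closest to the MOAP-1 tumors. The 31 proteasome subunits had a median of -0.09 with 1 lower at unadjusted p. That median turned to 0.04 after normexp, and was -0.10 after normexp without the spots of high local background. Among 18 genes of the BCL2 family, 14 lay above 0 at a median of 0.04, and BMF, a BH3-only protein released from the cytoskeleton, was the 1 member at unadjusted p (0.40, adjusted p 0.383). Leaving out MOAP-1 tumor 1 put 8 of these above 0 at a median of -0.01, and of all genes 59.7% lay above 0. Among 25 death receptor and caspase genes the median was 0.00. The decoy receptor TNFRSF10D was higher by 0.58 (adjusted p 0.323) and CYCS, which encodes cytochrome c, was lower by 0.41 in MOAP-1 tumors (adjusted p 0.390).

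Cholesterol synthesis was the list with the lowest median, and none of its members was called. These genes are driven by SREBP-2, a membrane-bound factor that INSIG1 holds in the endoplasmic reticulum when sterol is plentiful, and many carry a sterol regulatory element in the promoter. Of 24 tested, 1 lay above 0 and the rest below, that is with less RNA in MOAP-1 than in K264R tumors. The median was -0.31 (median of all genes 0.04), 11 were lower at unadjusted p against a background of 4.06%, and 16 had all 3 MOAP-1 tumors below all 3 K264R tumors (7.59% of all genes). No setting tried turned the median's sign (-0.38 to -0.23), but the count of 11 was 3 without MOAP-1 tumor 2 and 6 without K264R tumor 2. It was 3 after normexp, 16 after normexp without the spots of high local background and 17 with array weights. Of all genes, 376, 1126, 439, 610 and 2161 were lower in these settings, in turn. INSIG1 read 0.55, 0.35 and 0.71 in MOAP-1 tumors and 1.14, 1.04 and 1.18 in K264R tumors, a difference of -0.59 (SE 0.13, adjusted p 0.305). HMGCS1, the synthase that makes HMG-CoA, read 0.78, 0.50 and 0.64 against 1.52, 1.14 and 1.56, a difference of -0.77 (SE 0.21, adjusted p 0.323). Neither gene overlapped between the groups. In the vector tumors both were lower still, at -0.02 for INSIG1 and -0.53 for HMGCS1, and the K278R tumors were at 0.01 and -0.29.

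SQLE, the squalene epoxidase, read 2.61, 2.18 and 2.53 in MOAP-1 tumors and 2.74, 2.86 and 2.90 in K264R tumors (difference -0.40, adjusted p 0.426), without overlap. FDFT1, the squalene synthase, differed by -0.39 (adjusted p 0.381), STARD4, a sterol carrier, by -0.35 (0.377), and ACAT2, an acetyl-CoA acetyltransferase, by -0.33 (0.449). In each of these 4 genes MOAP-1 tumor 1 was the MOAP-1 tumor nearest the mutant ones. SREBF2, which encodes SREBP-2 itself, read 1.34, 1.07 and 1.22 against 1.12, 1.24 and 1.17 and overlapped (difference 0.03, adjusted p 0.935). The mean of the list, relative to its mean over the 6 tumors compared, was -0.03, -0.30 and -0.15 in MOAP-1 tumors, 0.19, 0.15 and 0.15 in K264R tumors and -0.47, -0.60 and -0.38 in vector tumors. Each K264R tumor lay above each MOAP-1 tumor, and each vector tumor below it. With array weights 4 of the 24 genes were called, against 1372 of all 30132 probes.

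Promoters were searched for the sterol regulatory element, written TCACNCCAC, and its core CACNCCAC on both strands, from 250 bases before to 50 after each RefSeq start in GRCh38.p14. A promoter window was given for 17 of the 24 genes. The longer motif was in 1 of the 17 (5.88%) and in 379 of 27305 genes in all (1.39%), and the core, which every longer match contains, was in 4 of 17 (23.5%) and in 1924 in all (7.05%). The 1 gene with the longer motif was SREBF2, which overlapped between the groups. The 4 promoters with the core are shown over 60 bases on the gene's strand with the match in capitals to show where the element lies in genes of this list, none of which was called. INSIG1 is at chr7:155297644-155297703, IDI1 at chr10:1048968-1049027 on the minus strand, SC5D at chr11:121292758-121292817 and SREBF2 at chr22:41832947-41833006.
INSIG1: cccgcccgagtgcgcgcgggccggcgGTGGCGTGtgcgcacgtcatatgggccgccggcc
IDI1: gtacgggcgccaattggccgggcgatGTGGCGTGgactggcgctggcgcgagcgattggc
SC5D: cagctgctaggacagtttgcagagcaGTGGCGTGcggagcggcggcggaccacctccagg
SREBF2: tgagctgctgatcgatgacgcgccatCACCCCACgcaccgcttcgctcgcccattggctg

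The first 3 carry the core in reverse and SREBF2 carries it forward, 208, 115, 68 and 132 bases before the start. IDI1, the isomerase of isopentenyl diphosphate, differed by -0.22 (adjusted p 0.457) and SC5D, a sterol desaturase, by -0.65 (0.471) with overlap. A match describes letters only and not a bound site.

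Of 32 proliferation genes tested, none was called, 4 lay above 0 at a median of -0.13, and 6 were lower at unadjusted p (4.06% of all genes). After normexp 10 lay above 0 at a median of -0.05 with 1 lower at unadjusted p. After normexp without the spots of high local background, 4 lay above 0 at a median of -0.13 with 7 lower. Without K264R tumor 3 the count lower was 3. Of all genes, 439, 610 and 313 were lower in these settings, in turn. BUB1, a spindle checkpoint kinase, read -0.49, -0.55 and -0.49 against -0.07, -0.08 and 0.13 (difference -0.50, SE 0.13, adjusted p 0.311). CDK1, the mitotic kinase, read 1.66, 1.71 and 1.71 against 2.01, 1.98 and 2.01 (difference -0.30, SE 0.12, adjusted p 0.404). The groups did not overlap in either gene, and 16 of the 32 did not overlap, all in that direction (7.59% of all genes). CENPA, the centromeric histone, differed by -0.31 (adjusted p 0.363). The vector tumors lay below both groups in these 3 genes, at -0.77 for BUB1, 1.58 for CDK1 and -0.74 for CENPA. Of 32 interferon response genes, 3 lay above 0 at a median of -0.18, and MX2, a GTPase against viruses, was the 1 member at unadjusted p (-0.36, adjusted p 0.451). Without MOAP-1 tumor 1 this median was -0.31 with 8 lower at unadjusted p (833 of all genes). Without MOAP-1 tumor 2 or K264R tumor 3 none was at unadjusted p. With array weights 16 were lower (2161 of all genes) and 2 called (1372 of all 30132 probes). Respiratory chain genes had a median of -0.06, which turned to 0.08 after normexp and was -0.09 after normexp without the spots of high local background.

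Ribosomal protein genes lay to the other side, with 33 of 35 above 0, a median of 0.14 and 18 higher without overlap (11.7% of all genes). At unadjusted p 3 of the 35 were higher (6.21% of all genes). That count was 1 without MOAP-1 tumor 2 or K264R tumor 3, where 676 and 531 of all genes were higher. RPLP0, a stalk protein of the large subunit, read 7.09, 7.37 and 6.99 against 6.80, 6.84 and 6.60 (difference 0.40, adjusted p 0.358) and RPS18 differed by 0.43 (0.390). The median turned to -0.004 after quantile normalization, so the direction of this list rests on the scaling. These are among the brightest probes of the array.

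**Figure D3:**
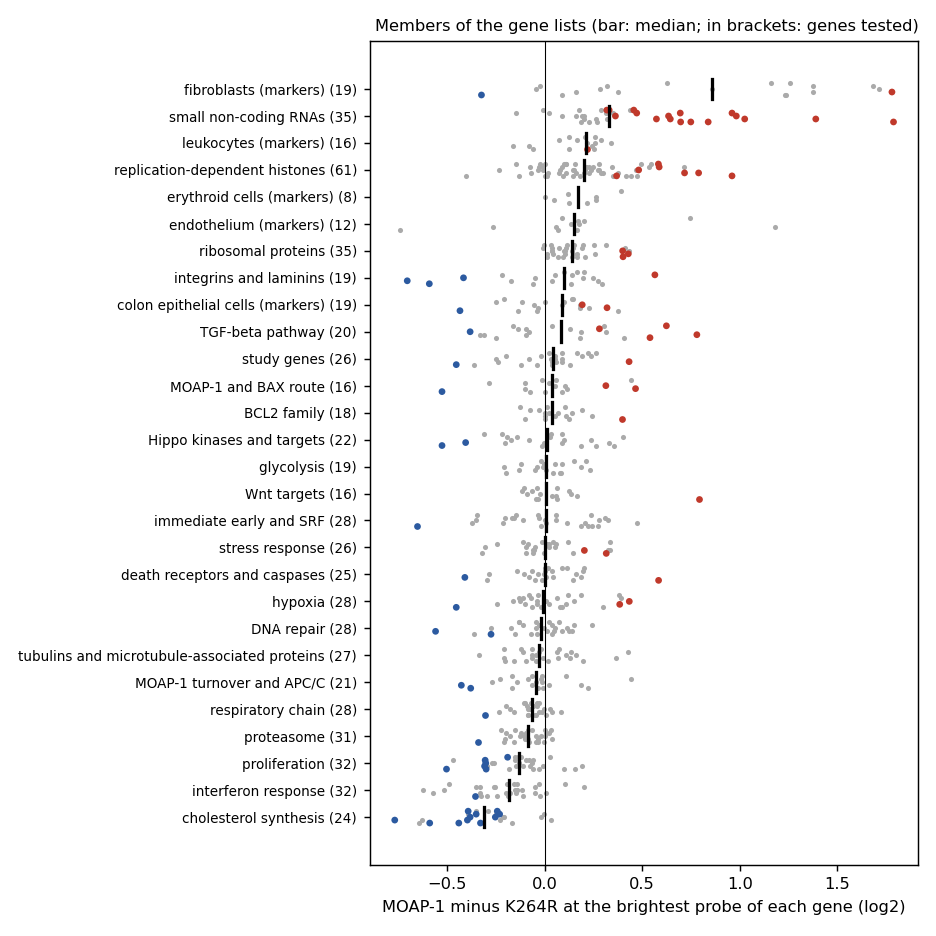
Median MOAP-1 minus K264R difference (log2, x axis) of the tested members of each of 28 lists (y axis), marked by a bar, with each member as a point, red where higher and blue where lower at unadjusted p under 0.05. Cholesterol synthesis lies lowest at -0.31, and the median of fibroblast markers is highest at 0.86, and 1.54 without MOAP-1 tumor 1.

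Histones and small non-coding RNAs were grouped after the top genes had been seen, so their counts are a description of that pattern. Of 61 replication-dependent histone genes, which make the histones of S phase and mostly lack a poly(A) tail, 50 lay above 0 at a median of 0.20, with 7 higher at unadjusted p. That count was 17 without MOAP-1 tumor 1, 2 without MOAP-1 tumor 3, 4 without MOAP-1 tumor 2, K264R tumor 1 or K264R tumor 3, and 27 with array weights. Of all genes, 1871, 506, 676, 592, 531 and 3700 were higher in these settings, in turn. Array weights called 10 of the histone genes, against 1372 of all 30132 probes. H1-4, a linker histone, read 1.38, 1.54 and 1.69 against 0.99, 1.04 and 1.14, a difference of 0.48 (adjusted p 0.388), and H4C7 differed by 0.79 (0.333). Of 35 small non-coding RNAs, 33 lay above 0 at a median of 0.33, with 17 higher at unadjusted p (6.21% of all genes) and 23 higher without overlap (11.7%). TERC, the telomerase RNA, read 3.12, 3.27 and 3.60 against 2.95, 2.76 and 2.90, a difference of 0.46 (SE 0.13, adjusted p 0.337). RN7SK, which restrains elongation factor P-TEFb, read 3.36, 3.44 and 2.99 against 2.70, 2.65 and 2.51, a difference of 0.64 (adjusted p 0.417). The MOAP-1 and K264R tumors did not overlap in TERC or RN7SK, and the vector tumors were above both, at 4.55 and 4.75. No setting tried turned the sign of either list's median, and that of the small RNAs was smallest after normexp, at 0.12 with 18 of 35 above 0 and 4 higher at unadjusted p. After normexp without the spots of high local background it was 0.37, with 34 above 0 and 22 higher. Of all genes, 295 and 2931 were higher in these 2 fits, in turn. With array weights 10 small RNAs were called, again against 1372 of all 30132 probes.

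Of 20 TGF-beta pathway genes 11 lay above 0, and 4 were higher and 1 lower at unadjusted p. The median of 0.08 turned to -0.31 after normexp, and was 0.14 after normexp without the spots of high local background. TGFB2, a ligand, differed by 0.54 (adjusted p 0.363), PMEPA1, a target that damps SMAD signaling, by 0.78 (0.396), the inhibitor SMAD7 by 0.28 (0.425) and the target ID1 by -0.38 (0.406). Of 19 integrin and laminin genes, LAMA4 was higher by 0.57 (adjusted p 0.451), and ITGA6, ITGB3 (-0.70, 0.358) and ITGAV (-0.42, 0.363) were the 3 lower at unadjusted p. Lists of glycolysis, stress response, Wnt targets, Hippo kinases and targets, hypoxia, DNA repair, tubulins and microtubule-associated proteins, and immediate early and SRF genes had medians between -0.03 and 0.01. These medians moved with single tumors and with the scaling, as hypoxia was -0.13 without MOAP-1 tumor 1 and 0.12 without MOAP-1 tumor 3, and after normexp DNA repair was -0.27, immediate early and SRF genes -0.17, Hippo genes -0.11 and glycolysis 0.15 (in turn 0.02, 0.02, 0.04 and -0.01 after normexp without the spots of high local background). At most 3 members of any of these were at unadjusted p under 0.05, among them NOTUM, an enzyme that inactivates Wnt (0.79, adjusted p 0.391), NBN, a DNA break sensor (-0.56, 0.433), and DUSP6, a phosphatase of ERK (-0.65, 0.407).

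The study named 27 genes from these tumors against vector, and so on these samples, and none was called between wild type and mutant. Of 26 tested, 17 lay above 0 at a median of 0.05, and TBRG1 (0.43, adjusted p 0.433) and HIF1A (-0.45, 0.381) were at unadjusted p under 0.05. The median turned to -0.16 after normexp, and was 0.08 after normexp without the spots of high local background. With array weights TBRG1 and HIF1A had adjusted p of 0.0144 and 0.0121. TBRG1, a growth regulator, read -1.83, -1.11 and -1.51 in MOAP-1 tumors and -1.88, -1.77 and -2.10 in K264R tumors, which overlapped, while the vector tumors averaged -3.40. HIF1A, the oxygen-sensitive factor, read 0.63, 0.56 and 0.38 against 1.03, 0.87 and 1.04 without overlap.

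Cell type markers showed tumor epithelium in both groups. EPCAM and the keratins KRT8, KRT18 and KRT19 were bright in each tumor, with differences of -0.21, 0.14, 0.09 and 0.18. CDH17, an intestinal cadherin, did not pass the filter on dim probes, and the homeobox factor CDX2 had a difference of 0.00 (95% interval -0.30 to 0.30). Fibroblast markers varied widely between tumors of the same group. COL1A2, a chain of type I collagen, read -0.27, 3.07 and 2.72 in MOAP-1 tumors and -0.50, 1.57 and -0.69 in K264R tumors. MOAP-1 tumors 2 and 3 and K264R tumor 2 were the high ones. VIM, which encodes vimentin, followed at -0.09, 2.95 and 2.31 against 0.15, 1.34 and -0.10.

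Of 19 fibroblast markers 16 lay above 0 at a median of 0.86, 1 was higher and 1 lower at unadjusted p, and 0 had groups without overlap. COL1A1, another type I chain, differed by 1.38 (SE 0.76, adjusted p 0.514). Without MOAP-1 tumor 1 the median was 1.54 with 10 higher at unadjusted p (1871 of all genes), and without K264R tumor 2 it was 1.25. It was 0.53 without MOAP-1 tumor 2, 0.51 without MOAP-1 tumor 3 and 0.54 without K264R tumor 1. After normexp it was 0.07, and 0.70 after normexp without the spots of high local background. With array weights 8 were called (1372 of all 30132 probes). The mean of the list, relative to its mean over the 6 tumors compared, stood at -0.66, 1.01 and 0.84 with wild type MOAP-1, against -0.83, 0.28 and -0.65 with K264R. How far human probes read mouse fibroblast RNA was not tested. Endothelial, leukocyte and erythroid markers had medians of 0.15, 0.21 and 0.17. The first 2 turned below 0 after normexp, and were 0.20 and 0.24 after normexp without the spots of high local background.

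**Figure D4:**
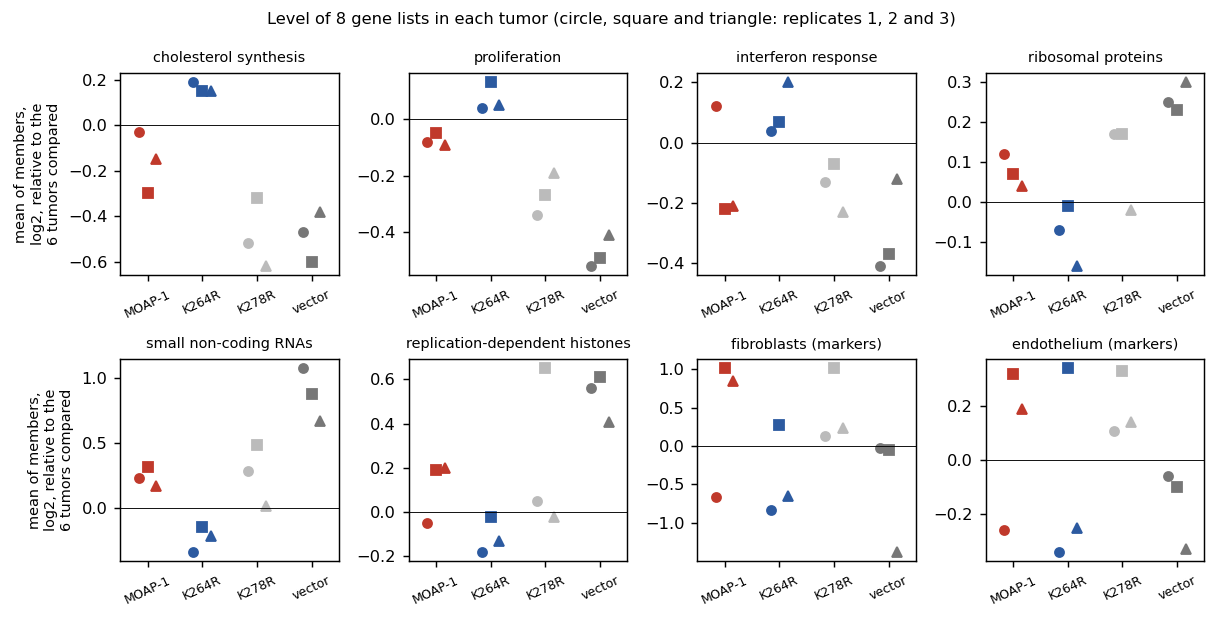
Mean of 8 lists in each tumor, relative to the mean over the 6 tumors compared (log2, y axis), 1 point a tumor. Cholesterol synthesis and proliferation are higher in each K264R tumor than in each MOAP-1 tumor, and ribosomal proteins and small non-coding RNAs are lower. The remaining lists overlap, and fibroblast markers are high in 2 MOAP-1 tumors and intermediate in 1 K264R tumor.

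Most of the largest differences were uneven among the tumors of a group, and these genes too were chosen after their values were seen. TMEM71, a membrane protein, read -0.82, 4.49 and 4.16 in MOAP-1 tumors and -1.77, -1.47 and -1.57 in K264R tumors. MOAP-1 tumor 1 was near the mutant tumors and the others far above, so the difference of 4.21 carried an SE of 0.95 and an adjusted p of 0.305. Its other probe differed by -0.01, and without MOAP-1 tumor 1 the difference was 5.93 (adjusted p 2.3e-10). SAA4, a serum amyloid protein, read -2.98, -0.28 and -1.10 against -4.06, -3.64 and -4.21, without overlap (difference 2.52, adjusted p 0.311, and 3.28 with adjusted p 0.0254 without MOAP-1 tumor 1). In TMEM71 and SAA4 the tumor left out was the MOAP-1 tumor nearest the K264R tumors, so these smaller p values are no independent support. ARG1, the arginase, differed by 2.41 (adjusted p 0.415) and ADH6, an alcohol dehydrogenase, by 2.19 (0.311). CXCR3 differed by 2.16 (0.540) with overlap.

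RNA5-8SN5, a 5.8S ribosomal RNA, had the largest difference below 0 among genes with a RefSeq symbol, at 0.94, 1.26 and 1.29 in MOAP-1 tumors and 3.83, 2.14 and 4.18 in K264R tumors (difference -2.22, SE 0.79, adjusted p 0.389). IL17B, a cytokine, differed by -1.51 (adjusted p 0.363) with overlap, and without K264R tumor 3 it was -2.33 (adjusted p 9.43e-04). That tumor was the K264R tumor nearest the MOAP-1 tumors, so the smaller p is no independent support. RHAG (-1.41, adjusted p 0.700), PRDM9 (-1.385, 0.626) and APLNR (-1.28, 0.538) came next. In each of them K264R tumor 1 stood far above K264R tumors 2 and 3. Among the probes whose MOAP-1 tumors spread by an SD over 1, tumor 1 was the farthest in 158 of 215 (73.5%), and among those of K264R tumors, tumor 2 was the farthest in 69 of 129 (53.5%).

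Few probes were above background in 1 group alone, 4 being not well above background in any K264R tumor and 37 in any MOAP-1 tumor, and none was called. Such probes passed the filter only through the group where they were bright, so their direction was largely set by the filter and is no result. With dim tumors taken no lower than the dimmest well above background probe, TEX12, a meiotic protein, was 2.23-fold higher in MOAP-1 tumors (adjusted p 0.449). It averaged -6.13 against -7.32, near the floor, and -4.65 in vector tumors. SPTSSB, a small subunit of serine palmitoyltransferase, was 1.54-fold lower on that measure (adjusted p 0.207). By chromosome, the share of genes lower at unadjusted p ran from 0.705% on chromosome 19 to 8.33% on chromosome 18, and the share higher from 4.47% on chromosome 22 to 8.26% on chromosome 15. By class of gene, 75 of 673 long non-coding RNAs were higher and 9 lower at unadjusted p with a median of 0.11, against 965 and 709 of 16685 protein-coding genes with a median of 0.04.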

How the data were processed

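RNA from 15 HCT116 xenograft tumors, 5 constructs with 3 tumors each, was measured on single-color Agilent arrays of 43118 spots left after control spots were removed. The deposited intensity values are Agilent's background-subtracted processed signal, and the labels name Feature Extraction 9.1 while the file headers give 10.5.1.1. A log2 table by the authors served as an alternative only. Outlier spots were removed, spots of 1 probe were averaged (34127 probes), and log2 values were taken relative to the 75th percentile of each array. The 6 arrays had a 75th percentile signal of 800 to 1402 and no saturated spot. Their number limits the precision, and the median SE was 0.144. Probes well above background in all 3 tumors of either group were tested (30132). Differences were fitted with lmFit and eBayes in limma 3.58.1 (R 4.3.3) on all 15 arrays by construct, with Benjamini-Hochberg adjustment, and the script was tested on simulated data. RefSeq accessions named 25422 probes (74.5%), and a gene is its brightest tested probe. Figures were drawn with matplotlib 3.10.9 (Python 3.11.15).

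Members and lists were chosen with earlier results of these data known. The rule for named genes took MOAP1, RASSF1, the largest called changes, called members of each list, all genes the study named and defining cell markers. As no symbol was called, most of the 10 smallest p and the 5 largest differences in each direction, and list members with small p, were named instead after values were seen. Alternatives were quantile and normexp scaling (offset 50), the latter also without spots whose local background was over 5 times the array's, the filter, the authors' table, only the 6 arrays, array weights, slide and scan day, a replicate block, the methods' t-test at 1.5-fold, and each tumor left out. Of the authors' table, 7 of 15 columns follow another array of the same construct, 2 of them MOAP-1 tumors 2 and 3, so it was matched by group.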

Additional observations from a re-analysis of the deposited data

How the results depend on the processing

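The count of calls (1 probe) was 0 after quantile normalization (2836 probes at unadjusted p under 0.05 by limma), normexp (1024), normexp without spots of high local background (7109), with only the 6 arrays (4505) and by the methods' t-test after Benjamini-Hochberg (3628), and 2 with scan day as a block. It was 1372 (1070 higher, 302 lower) with array weights and 56 with weights from the 6 arrays alone, an alternative chosen after seeing the data. Weights gave K264R tumor 3 a weight of 5.27 and MOAP-1 tumor 1 a weight of 0.691. Leaving out 1 tumor gave 0 to 36 calls, the 36 without MOAP-1 tumor 1 and 2 without MOAP-1 tumor 3, and 0 without K264R tumor 1 (1731 at unadjusted p) or 2 (4293). The count at 1.5-fold and unadjusted p, 638, was 343 after normexp, 1690 with array weights, 1606 with weights from the 6 arrays, 308 by the methods' t-test and 393 to 1431 with 1 tumor left out (MOAP-1 tumor 1 1431, MOAP-1 tumor 3 414, K264R tumor 1 393, tumor 2 1224, tumor 3 406). The MOAP1 difference was 0.40 with array weights (adjusted p 0.022), still short of 1.5-fold and so not a call, and 0.23 to 0.44 with 1 tumor left out. A_33_P3310552 reversed to -0.57 after normexp. Apart from fewer samples or arrays, the cause was not tested. The replicate numbers did not pair the tumors, as same-numbered tumors had correlations of deviations of 0.35, 0.151 and -0.061, and not every tumor correlated best with its own number. With a replicate block the calls were 1, the count at unadjusted p 794 and the MOAP1 difference 0.31 (adjusted p 0.404). Of 1160 values of 58 genes 1076 kept direction and side of the adjusted p threshold at any fold, 37 moved, 39 passed it, 7 lost it and 1 reversed. Of 560 list medians 473 stayed close and 87 moved. Brightness over background limits dim probes, whose median SE was 0.186 among the dimmest 7533 against 0.127 among the brightest 7533.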
